A study of Homo sapiens with 9 samples.

Results

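Translation initiation factors load ribosomes onto messenger RNA, and elongation factors drive each step of peptide synthesis. Their genes were taken here as those whose symbol starts with EIF or EEF followed by a digit, without the EIF2AK kinases and without pseudogenes. This gave 61 of the 15436 genes in the expression table, of which 59 code for proteins and 2 are non-coding neighbours of a factor gene (EIF1B-AS1 and EIF3J-DT). METTL13 is among them because the table lists it as EEF1AKNMT, a methyltransferase of elongation factor 1A. The 43 pseudogenes of these factors that the table also lists were kept apart and are used only where they bear on a parent gene. Of 67 symbols in the lists of the factor classes, 7 are not in the expression table, so the classes are not complete. The absent symbols are EIF4E1B, EIF4E3, EIF4EBP1, EIF4EBP3, EIF5A2, EEF1A2 and EEF1AKMT1.

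The 9 RNA libraries come from Raji, an established line of B cells that was derived from a human Burkitt lymphoma. The DMSO group received only the solvent, the HU group hydroxyurea, an inhibitor of ribonucleotide reductase, and the Thy-Noc group thymidine with nocodazole, a microtubule poison. Each group has 3 libraries, and all are of the same cell line, which limits every value to 1 genotype. Doses and times are not stated in the labels, and neither is whether replicates were separate cultures. All p-values therefore set a difference between groups against the spread of these libraries only, and that spread may be technical.

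Total counts ran from 74940755 to 110485145 per library, and levels are given as CPM, the count scaled to a common library size. The sources used here do not say how many of a gene's transcripts a deposited value takes in, so every CPM, level per kilobase and fold change below is one of the deposited values and may not be that of the whole gene. Tests covered the 11346 genes, among them 60 of the 61 factor genes, that reached 1 CPM in no fewer than 3 libraries. All 7 B-cell markers examined were listed, with a summed level of 1076.0 to 2034.6 CPM, and 0 of 5 T-cell markers were. Of 5 epithelial and stromal markers only COL1A1 was listed, at 8.09 to 13.7 CPM in HU and 1.30 to 5.19 CPM in the other libraries. LYZ and ITGAM, the 2 of 4 myeloid markers that were listed, summed to 1.21 to 3.25 CPM in HU and 0.765 to 1.06 CPM elsewhere. The part of these markers in the results was not tested.

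In textbook terms, initiation begins when eIF2 brings the initiator tRNA to the small ribosomal subunit, helped by eIF1, eIF1A, eIF3 and eIF5. The eIF4 proteins bind the cap of the messenger and unwind it, eIF2B recharges eIF2, and the amount of free cap-binding protein eIF4E is a well-known control point in B-cell lymphomas, where MYC raises the output of the translation machinery. During elongation eEF1A delivers aminoacyl-tRNA, the eEF1B complex recharges it, eEF2 moves the ribosome along, and eIF5A, which carries the amino acid hypusine, relieves stalled ribosomes.

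The cap-binding protein EIF4E was the factor gene that passed the test between HU and DMSO. In GRCh38 the gene spans positions 98871684 to 98930637 of chromosome 4, on the minus strand. Its level stood at 184, 197 and 198 CPM in DMSO, 133, 98.9 and 125 CPM with HU and 169, 176 and 202 CPM with Thy-Noc. Every HU library was below every library of the other groups, and the DMSO and Thy-Noc libraries overlapped. The mean was 193 ± 7.50 CPM in DMSO, and in HU it fell by 38.3% to 119 ± 17.9 CPM (SD, n = 3 each). The log2 fold change was -0.70 ± 0.13 (SE), and edgeR's quasi-likelihood test gave a p of 0.0407 after Benjamini-Hochberg adjustment over all genes tested. As these are bulk samples, fewer cells with the transcript and less of it per cell cannot be told apart. Against Thy-Noc the log2 fold change in HU was -0.62 ± 0.13, with an adjusted p of 0.0653 in the same test, which missed the threshold of 0.05. Thy-Noc differed from DMSO by -0.08 on the log2 scale, with a 95% interval from -0.39 to 0.22. Leaving out any 1 of the 9 libraries kept EIF4E lower in HU than in DMSO, by -0.78 to -0.58 on the log2 scale, but ended the call in each case (adjusted p from 0.0528 to 0.133 in edgeR's quasi-likelihood test). It was called under 8 of 21 alternative settings.

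MYC and its partner MAX bind the E-box CACGTG, and the sequence just before the start of EIF4E holds it at 2 places, which is why these stretches are shown. The third sequence is the only E-box before the start of EIF1B, the factor gene with small spread that was higher in all HU libraries. All are from RefSeq on GRCh38.p14, written 5′ to 3′ on the gene's strand, with the E-box in capitals. An exon of another annotated EIF4E transcript covers both EIF4E stretches, and the EIF1B stretch lies within the span of the antisense gene EIF1B-AS1.
EIF4E, 225 bases before the start, chr4:98929341-98929370, minus strand: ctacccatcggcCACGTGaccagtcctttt
EIF4E, 72 bases before the start, chr4:98929188-98929217, minus strand: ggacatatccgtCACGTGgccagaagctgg
EIF1B, 54 bases before the start, chr3:40309641-40309670, plus strand: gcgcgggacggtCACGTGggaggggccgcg

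A search for CACGTG, which reads the same on both strands, covered the 250 bases before the start of 51 factor genes that matched the RefSeq table. It was found in 11 of them (21.6%), against 6.34% of all 35116 promoters of the same length and 9.19% of the 8660 promoters of tested genes. These are EEF1AKMT4, EEF2K, EIF1B, EIF2B3, EIF3F, EIF3K, EIF4A3, EIF4B, EIF4E, EIF4G1 and EIF4H. The genes with it were negative between HU and DMSO in 6 of 11 cases (median log2 fold change -0.13). Those without it were negative in 26 of 39 tested cases (median -0.20). As a second motif, the ETS core CCGGAAG, sought on both strands (as CCGGAAG and CTTCCGG, which cannot share a letter with an E-box), was found in 8 of 51 factor promoters (15.7%) and in 17.7% of promoters of tested genes. A match is a run of letters and was not tested as a binding site.

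EIF5A was the factor gene that passed the test between HU and Thy-Noc. The gene spans positions 7306999 to 7312463 of chromosome 17, on the plus strand. Its level stood at 51.4, 47.1 and 53.7 CPM in DMSO, 24.7, 15.7 and 27.1 CPM with HU and 51.2, 78.4 and 75.6 CPM with Thy-Noc. All HU libraries were below the other 6, and 1 Thy-Noc library sat among the DMSO values while the other 2 were above them. HU was lower than Thy-Noc by a log2 fold change of -1.60 ± 0.25, with an adjusted p of 0.0383 in edgeR's quasi-likelihood test. The log2 fold change between HU and DMSO was -1.17 ± 0.25, with an adjusted p of 0.0515 in that test, just above the threshold and so not called. Thy-Noc and DMSO differed by 0.43 ± 0.24, with a 95% interval from -0.14 to 1.0. With any 1 library left out, the difference between HU and Thy-Noc was -1.77 to -1.40. The adjusted p was then 0.0507 to 0.121 in edgeR's quasi-likelihood test, so the call was lost each time. Calls over all genes in this comparison also fell, from 199 to between 1 and 103. EIF5AL1, a close copy of EIF5A on chromosome 10, was at 8.99, 7.64 and 8.14 CPM in DMSO, 6.15, 6.09 and 5.44 CPM with HU and 7.17, 7.14 and 9.08 CPM with Thy-Noc. Its HU libraries were also the lowest 3 (log2 fold change against DMSO -0.49 ± 0.17, adjusted p = 0.164 in edgeR's quasi-likelihood test). Reads can be shared between such copies, so the split between them is uncertain. The sum of EIF5A, EIF5AL1 and the pseudogene EIF5AP4 was 63.9, 58.2 and 65.8 CPM in DMSO and 33.7, 24.9 and 35.3 CPM with HU. With Thy-Noc that sum was 62.3, 89.2 and 88.9 CPM, so its HU libraries were lowest as well.

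**Figure D1:**
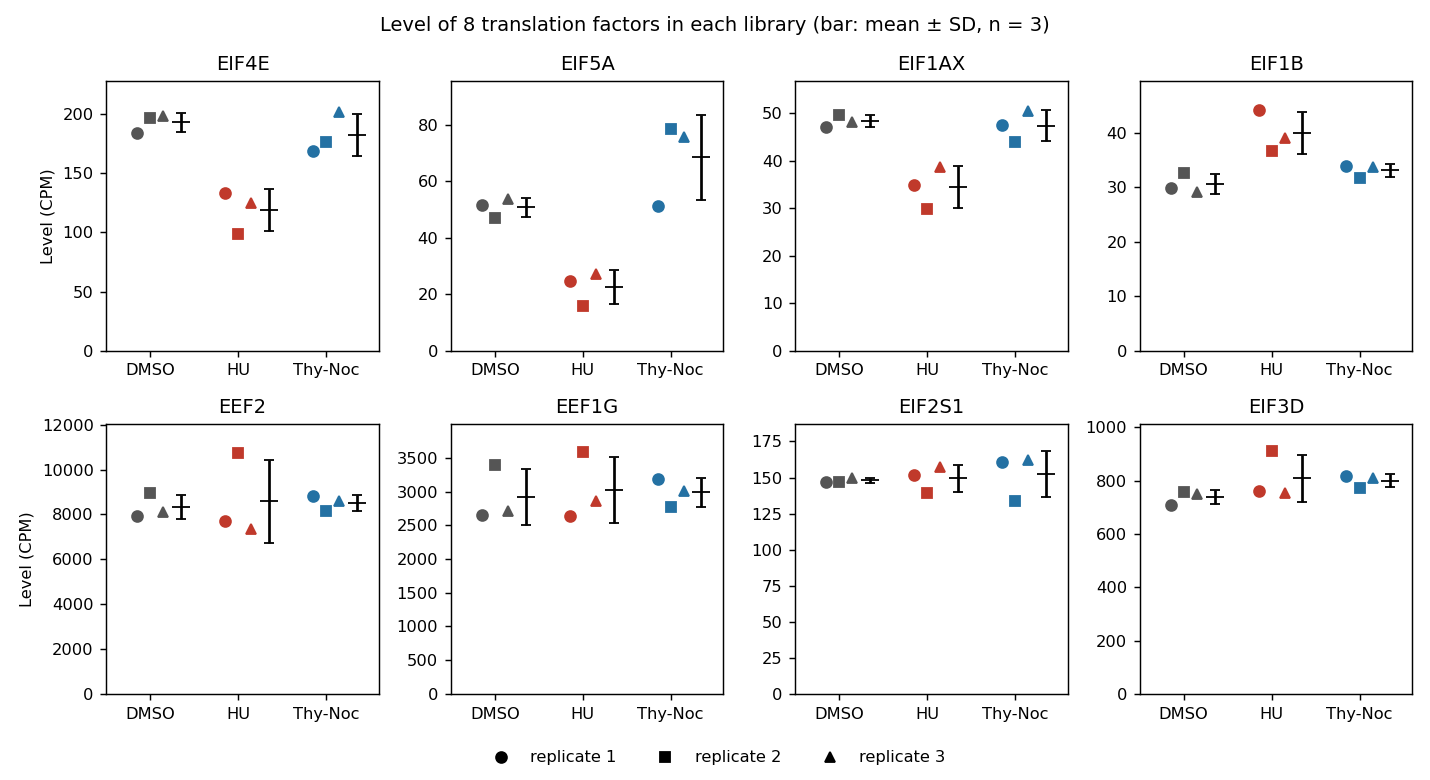
Level in CPM (vertical axes, each from 0) of 8 translation factors in every library of DMSO, HU and Thy-Noc, with the mean and SD of 3 libraries as a bar beside the points. EIF4E, EIF5A and EIF1AX have their 3 HU points below all others and EIF1B has them above, while EEF2, EEF1G and EIF2S1 overlap between the groups, and the EIF3D points overlap between HU and each other group.

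With 1 of 60 tested factor genes called between HU and DMSO, the share was 1.67%, and over all genes tested 3.56% were called, 1.56% as lower in HU. Between HU and Thy-Noc it was also 1 of 60, where 1.75% of all genes were called, 1.06% as lower in HU. Between Thy-Noc and DMSO edgeR's quasi-likelihood test called 0 of 60, where 0.0353% of all genes were called. At an unadjusted p under 0.05 that comparison held 4 factor genes (EEF1A1, EEF1AKMT2, EIF3CL and EIF3I), a share of 6.67% where 4.49% of all genes fell there. DESeq2 called 1 of them, EEF1AKMT2 (1.58% over all genes), and limma 0 (0.106%). In HU against DMSO DESeq2 called 9 factor genes (EIF4E, EIF5A, EIF5AL1, EIF1AX, EIF1AY, EIF1B, EIF2B1, EIF3I and EEF1A1), where it called 18.8% of all genes. There limma called 4 (EIF4E, EIF5A, EIF1AY and EIF3I) and 4.95% of all genes. In HU against Thy-Noc DESeq2 called 6 (EIF4E, EIF5A, EIF5AL1, EIF1AX, EIF1AY and EIF3I; 16.1% over all genes) and limma 1, EIF5A (2.87%). The comparisons share libraries (DMSO serves 2 of them, and so do HU and Thy-Noc), so their values are not independent.

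The median log2 fold change of the 60 tested factor genes between HU and DMSO was -0.21, with 39 negative, where the median over all genes was 0.02 and 48.7% were negative. Without the 8 tested genes whose replicates differed at least 10-fold it was -0.18, with 33 of 52 negative. For the 27 factor genes within 2-fold in every group it was -0.09, with 16 negative, where 50.2% of all genes this even were negative. The HU and DMSO libraries did not overlap for 12 factor genes that were lower in HU (15.3% over all genes) and for 3 that were higher (15.5% over all genes). At an unadjusted p under 0.05 there were 10 factor genes (16.7%, with 21.2% over all genes), and in HU against Thy-Noc 6 of 60 (19.4% over all genes). In Thy-Noc against DMSO the median was -0.08, with 3 factor genes lower without overlap (4.79% over all genes) and 2 higher (5.18%). In HU against Thy-Noc the median was -0.03, with 6 lower without overlap (12.0% over all genes) and 3 higher (12.9%). When all 3 HU libraries were set against all 6 others, 6 factor genes were lowest in HU (8.45% over all genes), and these were EIF1AX, EIF1AY, EIF2B1, EIF4E, EIF5A and EIF5AL1. The 3 HU libraries were above the other 6 for 2 factor genes (3.33%, with 9.55% over all genes), EIF1B and EIF3I, but the EIF3I libraries were 85.8-fold apart within HU and no direction is read from that gene. EIF3I is also 1 of the genes counted as higher without overlap in each of the 3 comparisons. EIF5, whose libraries were up to 13.2-fold apart within a group, is 1 of the 12 counted as lower in HU than in DMSO.

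**Figure D2:**
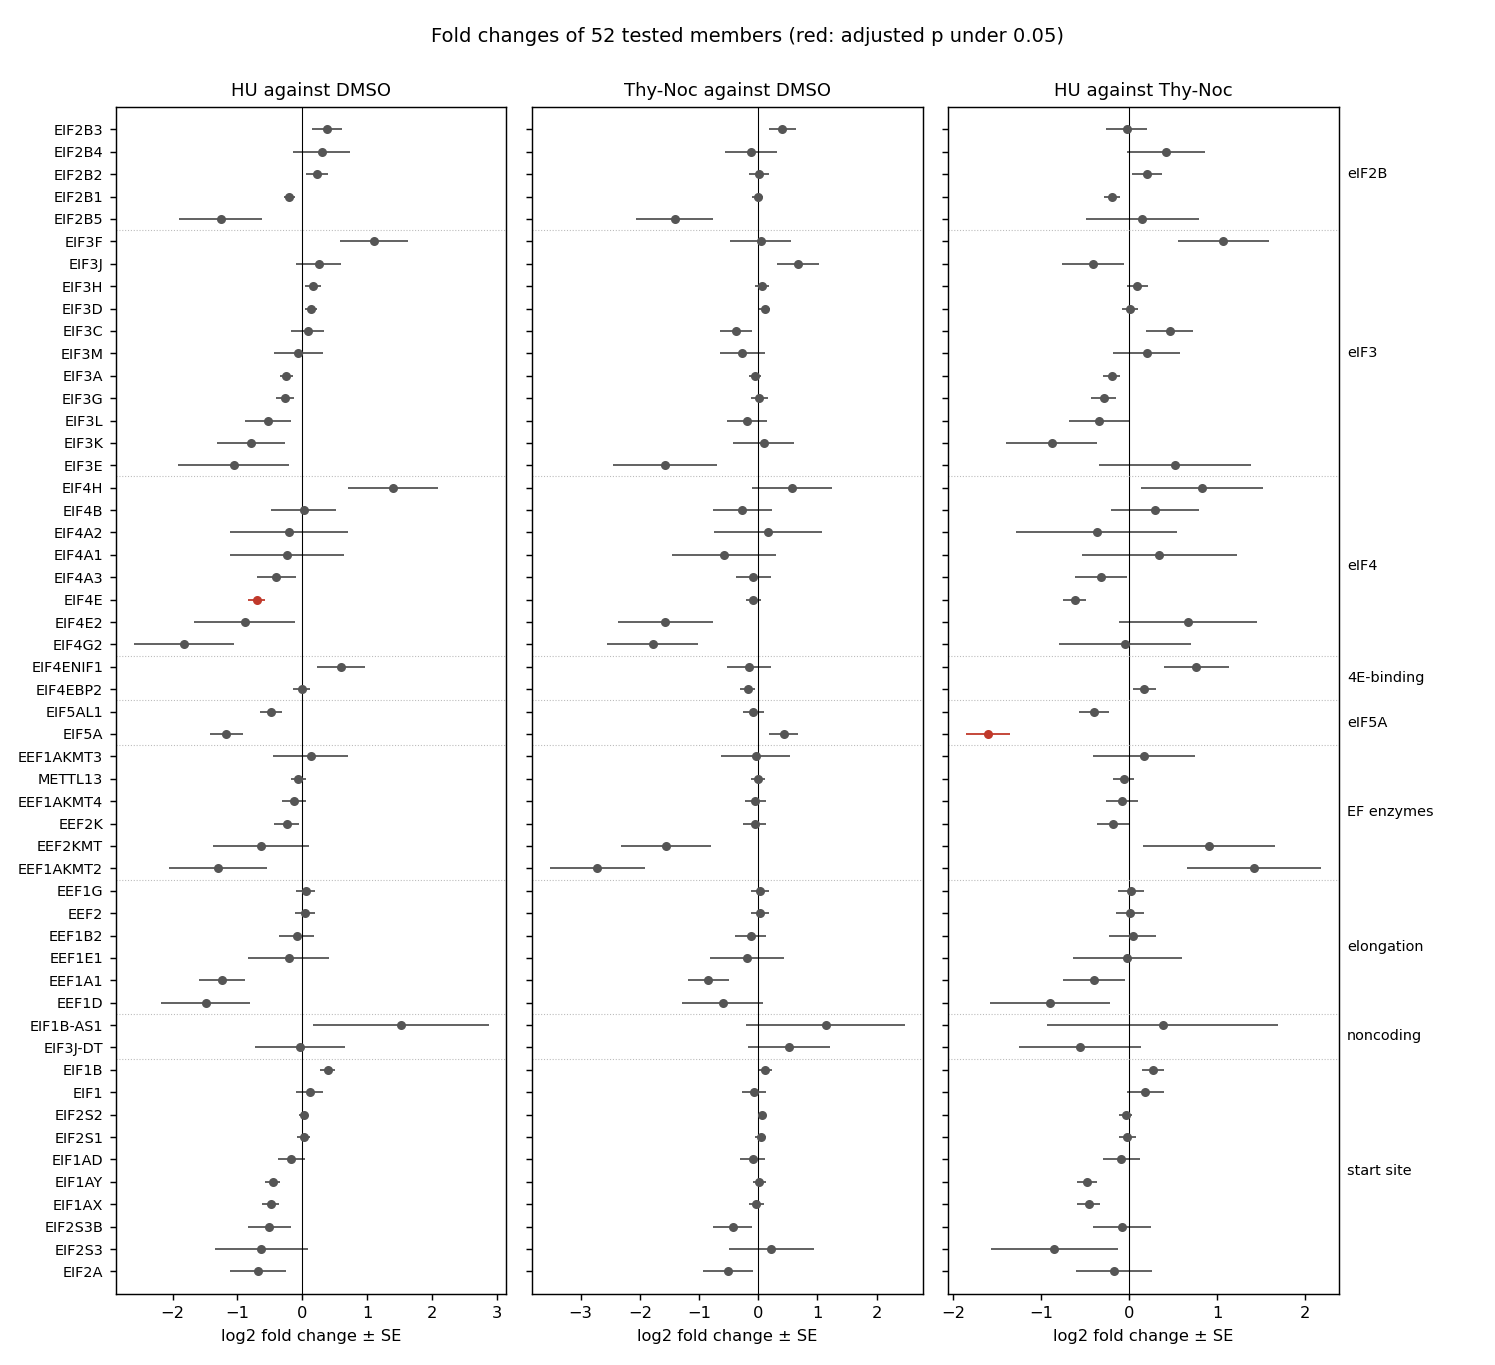
Log2 fold changes with their SE (horizontal axes) of 52 tested factor genes in HU against DMSO, Thy-Noc against DMSO and HU against Thy-Noc, ordered by class, without the 8 tested genes whose replicates differed at least 10-fold. The red points are EIF4E in the first comparison and EIF5A in the last, and many points with long bars reach over 0.

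The ternary complex and start-site class had 12 tested genes and 0 called in any of the 3 comparisons by edgeR's quasi-likelihood test. At an unadjusted p under 0.05 it held 3 genes in HU against DMSO, 0 in Thy-Noc against DMSO and 2 in HU against Thy-Noc. The shares were 25.0%, 0.0% and 16.7% of the class, beside 21.2%, 4.49% and 19.4% over all genes tested. Its eIF2 alpha and beta subunits overlapped between all groups. EIF2S1, the alpha subunit that stress kinases phosphorylate, was at 147, 147 and 150 CPM in DMSO, 152, 139 and 157 CPM with HU and 161, 134 and 162 CPM with Thy-Noc. The log2 fold change between HU and DMSO was 0.02 with a 95% interval from -0.22 to 0.25. EIF2S2, the beta subunit, was at 139, 141 and 132 CPM in DMSO, 139, 138 and 140 CPM with HU and 149, 136 and 144 CPM with Thy-Noc, with an interval from -0.15 to 0.19 between HU and DMSO. It had the smallest spread between replicates of all 61 factor genes, at most 1.1-fold. The gamma subunit EIF2S3 had a lower level that varied between libraries, from 3.30 to 16.8 CPM, and its copy EIF2S3B stood at 4.69 to 12.1 CPM.

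EIF1AX, which encodes the scanning factor eIF1A, was at 47.1, 49.6 and 48.2 CPM in DMSO, 34.9, 29.8 and 38.6 CPM with HU and 47.4, 44.0 and 50.5 CPM with Thy-Noc. The HU libraries were the lowest 3, and the other groups overlapped. The log2 fold change between HU and DMSO was -0.49 ± 0.13 (adjusted p = 0.0840 in edgeR's quasi-likelihood test), and against Thy-Noc it was -0.46 ± 0.13 (adjusted p = 0.116). Its near-identical partner EIF1AY was at 179, 158 and 173 CPM in DMSO, 129, 112 and 130 CPM with HU and 164, 163 and 191 CPM with Thy-Noc. The log2 fold changes of EIF1AY in HU were -0.46 ± 0.11 against DMSO (adjusted p = 0.0639) and -0.48 ± 0.11 against Thy-Noc (adjusted p = 0.0722) in edgeR's quasi-likelihood test. Reads can be shared between such similar genes, so their differences may not be separate. Neither gene passed the threshold. EIF1B, a paralog of the start-codon factor eIF1, was at 29.8, 32.6 and 29.2 CPM in DMSO, 44.2, 36.6 and 39.0 CPM with HU and 33.9, 31.7 and 33.7 CPM with Thy-Noc. Its HU libraries were the highest 3 (log2 fold change against DMSO 0.39 ± 0.12, adjusted p = 0.120 in edgeR's quasi-likelihood test). EIF1 itself, at 261 to 408 CPM, overlapped between all groups. EIF1AD stood at 44.8 to 79.7 CPM and EIF2A at 0.777 to 2.59 CPM.

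All 5 subunits of eIF2B, the exchange factor that recharges eIF2, were tested and edgeR's quasi-likelihood test called 0 in each comparison. At an unadjusted p under 0.05 there were also 0 in each. Over all genes tested it was 21.2% in HU against DMSO, 4.49% in Thy-Noc against DMSO and 19.4% in HU against Thy-Noc. EIF2B1 had the smallest p of the class and was at 105, 110 and 109 CPM in DMSO, 95.6, 90.4 and 96.6 CPM with HU and 109, 98.0 and 115 CPM with Thy-Noc. Its HU libraries were the lowest 3 by a small margin (log2 fold change against DMSO -0.20 ± 0.09, adjusted p = 0.255 in edgeR's quasi-likelihood test). EIF2B2 was at 26.7 to 40.0 CPM, EIF2B3 at 30.6 to 63.3 CPM and EIF2B4 at 18.0 to 53.1 CPM. The catalytic subunit EIF2B5 ran from 26.5 to 186 CPM, with 163, 186 and 33.7 CPM in DMSO, so that 1 DMSO library lay within the range of the treated ones.

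The 14 eIF3 genes, whose products form the scaffold on the small subunit, had 0 called in each comparison by edgeR's quasi-likelihood test. At an unadjusted p under 0.05 there were 2 in HU against DMSO, 2 in Thy-Noc against DMSO and 1 in HU against Thy-Noc. That is 14.3%, 14.3% and 7.14% of the class, beside 21.2%, 4.49% and 19.4% over all genes tested. EIF3A, the largest subunit, was at 516, 593 and 532 CPM in DMSO, 447, 434 and 498 CPM with HU and 562, 479 and 543 CPM with Thy-Noc. HU and DMSO did not overlap, while HU and Thy-Noc did (log2 fold change between HU and DMSO -0.25 ± 0.10, adjusted p = 0.209 in edgeR's quasi-likelihood test). EIF3D, a subunit with cap-binding activity on some messengers, was at 710, 757 and 752 CPM in DMSO, 763, 910 and 753 CPM with HU and 816, 773 and 812 CPM with Thy-Noc. Its log2 fold change between HU and DMSO was 0.13 with a 95% interval from -0.09 to 0.35, and its Thy-Noc libraries were all above the DMSO ones. EIF3G was at 1008.8, 1148.0 and 1002.4 CPM in DMSO, 769, 1032.4 and 824 CPM with HU and 1194.9, 957 and 1061.7 CPM with Thy-Noc. EIF3H was at 537, 663 and 627 CPM in DMSO, 681, 754 and 609 CPM with HU and 680, 613 and 621 CPM with Thy-Noc. For both, HU overlapped with each other group. EIF3K and EIF3L, which sit together in the complex, each had 1 HU library far below the rest. EIF3K was at 131, 191 and 34.7 CPM in HU and at 191 to 241 CPM elsewhere, and EIF3L at 213, 84.0 and 215 CPM in HU and at 172 to 257 CPM elsewhere. The remaining subunits, each less than 10-fold apart within a group, spanned 54.9 to 140 CPM (EIF3C), 156 to 1007.4 CPM (EIF3F), 8.92 to 163 CPM (EIF3E), 24.3 to 53.3 CPM (EIF3M) and 11.9 to 32.3 CPM (EIF3J).

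Apart from EIF4E, 0 of the 10 eIF4 genes were called in any comparison by edgeR's quasi-likelihood test. EIF4G2, a scaffold relative that lacks the eIF4E-binding region, was at 331, 618 and 116 CPM in DMSO, 168, 67.6 and 63.8 CPM with HU and 77.7, 45.4 and 187 CPM with Thy-Noc. It was the other gene of the class with an unadjusted p under 0.05 between HU and DMSO, and the groups overlapped. EIF4A3, a helicase of the exon junction complex, was at 234 to 517 CPM, and EIF4H, a helper of the helicase, at 47.7 to 492 CPM. The helicases EIF4A1 and EIF4A2, at 0.583 to 4.45 and 0.33 to 2.68 CPM, and EIF4B, at 4.60 to 14.5 CPM, were listed far lower than their partners, and EIF4E2, a cap-binding relative, was at 1.41 to 9.26 CPM. Of the eIF4E-binding proteins, the repressor EIF4EBP2 was at 53.1 to 73.2 CPM. The eIF4E transporter EIF4ENIF1 was at 10.3, 7.07 and 10.4 CPM in DMSO, 14.6, 7.77 and 19.6 CPM with HU and 10.8, 7.55 and 6.58 CPM with Thy-Noc. Both overlapped between all groups, with 0 of 2 called and 0 of 2 at an unadjusted p under 0.05 in each comparison by edgeR's quasi-likelihood test.

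The 6 elongation factor genes held most of the factor counts in every library. Of them edgeR's quasi-likelihood test called 0 in each comparison. EEF1A1 was the 1 gene at an unadjusted p under 0.05 in HU against DMSO and in Thy-Noc against DMSO, with 0 in HU against Thy-Noc. The shares were 16.7%, 16.7% and 0.0% of the class, beside 21.2%, 4.49% and 19.4% over all genes tested. EEF2, the translocase, on chromosome 19 from 3976056 to 3985469, was at 7936.8, 8958.1 and 8123.1 CPM in DMSO, 7688.7, 10727.3 and 7330.4 CPM with HU and 8818.9, 8133.1 and 8617.9 CPM with Thy-Noc. It alone held 36.1% to 48.0% of the counts of all 61 factor genes, which together took 1.75% to 2.30% of each library. HU contained both the highest and the lowest EEF2 library. The log2 fold change between HU and DMSO was 0.04 with a 95% interval from -0.32 to 0.41, and between Thy-Noc and DMSO 0.03 with an interval from -0.33 to 0.40. EEF1G, a subunit of the eEF1B complex, on chromosome 11 from 62559601 to 62574086, was at 2652.9, 3397.8 and 2714.0 CPM in DMSO, 2642.6, 3582.0 and 2853.6 CPM with HU and 3188.0, 2766.3 and 3011.3 CPM with Thy-Noc. Its groups overlapped as well (log2 fold change between HU and DMSO 0.05, interval -0.31 to 0.41). EEF1B2, the exchange subunit, was at 122 to 244 CPM, EEF1D at 50.2 to 394 CPM and EEF1E1, a component of the tRNA synthetase complex, at 1.66 to 6.28 CPM. Per kilobase of annotated exon, EEF2 led the factor genes that were less than 10-fold apart within groups, with a mean level over the 9 libraries of 2106.2 CPM, followed by EEF1G with 1096.7 CPM, EIF3G with 287 CPM, EIF3D with 192 CPM and EEF1B2 with 100 CPM. On that scale EIF4A1, with 0.528 CPM, and EIF4A2, with 0.171 CPM, were among the lowest.

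EEF1A1, which delivers aminoacyl-tRNA and is usually among the most abundant transcripts of a cell, was at 469, 704 and 427 CPM in DMSO, 340, 137 and 199 CPM with HU and 239, 332 and 319 CPM with Thy-Noc. All DMSO libraries were above all treated ones. The log2 fold change was -1.24 ± 0.36 in HU against DMSO (adjusted p = 0.108 in edgeR's quasi-likelihood test) and -0.84 ± 0.35 in Thy-Noc against DMSO (unadjusted p = 0.0471, and the adjusted p rounded to 1). Its intronless copy EEF1A1P5 had a higher level than the gene itself, at 1461.8, 1435.6 and 1444.9 CPM in DMSO, 1416.4, 1778.1 and 1368.9 CPM with HU and 1707.2, 1329.2 and 1667.9 CPM with Thy-Noc. The 17 listed pseudogenes of EEF1A1 held 71.9% to 94.3% of the summed level of the gene and its copies. That sum was 2351.8 ± 133 CPM in DMSO, 2147.2 ± 241 CPM in HU and 2270.8 ± 211 CPM in Thy-Noc (SD, n = 3 each), and the groups overlapped. Reads of near-identical copies can be assigned to either, so the lower EEF1A1 values cannot be told apart from a different split among the copies. Other parents also stood below their copies: EIF4A1 held 9.59% to 49.6% and EIF4B 12.4% to 33.1% of the level of gene and copies together. For EIF4E the parent held 94.8% to 95.9%, and the 1 copy EIF4EP2 was at 8.24, 8.89 and 8.43 CPM in DMSO, 6.06, 5.38 and 5.78 CPM with HU and 8.20, 7.54 and 9.75 CPM with Thy-Noc. Its HU libraries were again the lowest 3 (log2 fold change against DMSO -0.57, adjusted p = 0.105 in edgeR's quasi-likelihood test), and the sum of gene and copy was 202 ± 7.73 CPM in DMSO, 125 ± 18.3 CPM in HU and 191 ± 18.4 CPM in Thy-Noc.

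**Figure D3:**
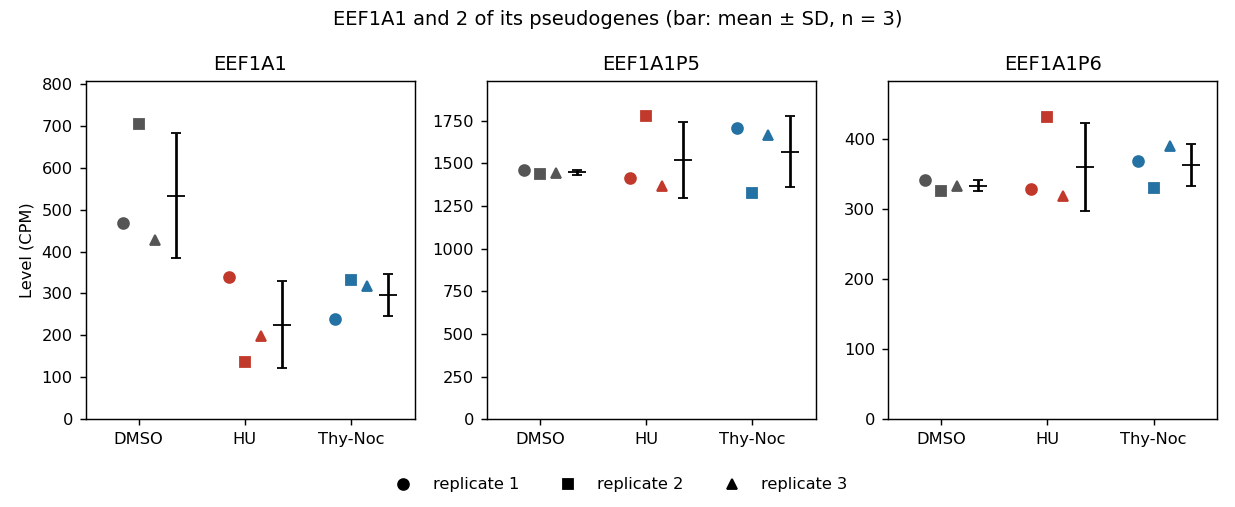
Level in CPM (vertical axes, each from 0) of EEF1A1 and of its pseudogenes EEF1A1P5 and EEF1A1P6 in every library, with the mean and SD of 3 libraries as a bar. The DMSO points of EEF1A1 lie above all others, from 427 to 704 CPM, while for both pseudogenes the HU points range from below to above the DMSO points, with 1 HU point of EEF1A1P6 among them.

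The 6 enzymes that modify elongation factors had 0 called in each comparison by edgeR's quasi-likelihood test. Over all genes tested 21.2%, 4.49% and 19.4% were at an unadjusted p under 0.05 in HU against DMSO, Thy-Noc against DMSO and HU against Thy-Noc. In the same order it was 0, 1 and 0 of these enzymes. EEF1AKMT2, a lysine methyltransferase of eEF1A, was that gene, at 3.64, 1.13 and 10.1 CPM in DMSO, 2.27, 1.21 and 2.59 CPM with HU and 0.997, 0.441 and 0.828 CPM with Thy-Noc. The Thy-Noc libraries were the lowest 3 (log2 fold change against DMSO -2.72 ± 0.80, unadjusted p = 0.0108, and the adjusted p rounded to 1). The kinase EEF2K, which inactivates eEF2, was at 24.2 to 37.8 CPM and METTL13 at 94.7 to 118 CPM, and both overlapped between groups. EEF2KMT was at 2.74 to 29.4 CPM, EEF1AKMT3 at 2.06 to 7.83 CPM and EEF1AKMT4 at 8.39 to 12 CPM. Of the non-coding transcripts, EIF1B-AS1 was at 0.507, 0.289 and 0.674 CPM in DMSO, 0.456, 3.21 and 0.553 CPM with HU and 1.94, 0.0130 and 1.28 CPM with Thy-Noc, and EIF3J-DT at 1.09 to 6.62 CPM. Neither was called by edgeR's quasi-likelihood test. With strand use in the counting not stated, reads of EIF1B-AS1 and EIF1B cannot be told apart where the genes overlap. That overlap is short, from position 40309684 to 40309698 of chromosome 3.

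For 9 factor genes the libraries of 1 group differed at least 10-fold (after adding 0.5 CPM), and no direction between groups is read from them, also where a test or an order of the libraries is given. Among the 60 tested genes there were 8 (13.3%), where 16.2% of all genes tested were this uneven. EIF3I, an eIF3 subunit, was at 0.0127, 1.78 and 2.28 CPM in DMSO, 3408.9, 39.2 and 604 CPM with HU and 26.2, 28.6 and 27.2 CPM with Thy-Noc. The HU libraries were above all others but 85.8-fold apart after adding 0.5 CPM, and the log2 fold change against DMSO, 9.96 ± 2.33, missed the threshold (adjusted p = 0.0650 in edgeR's quasi-likelihood test). EIF4G1, the main scaffold of the cap-binding complex, was at 1486.7, 3.78 and 97.1 CPM in DMSO, 192, 98.4 and 120 CPM with HU and 299, 190 and 4.13 CPM with Thy-Noc. A low value thus stood in 1 DMSO and 1 Thy-Noc library.

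EIF3B, a core eIF3 subunit, was at 807, 842 and 73.5 CPM in DMSO, 6.76, 716 and 592 CPM with HU and 843, 41.4 and 49.3 CPM with Thy-Noc. EIF5B, the factor that joins the ribosomal subunits, was at 3.0, 7.53 and 313 CPM in DMSO, 252, 1.08 and 4.48 CPM with HU and 3.99, 274 and 4.25 CPM with Thy-Noc. Both switched between a high and a low level, and high values occurred in every group. EIF3CL, a near-identical copy of EIF3C, was at 303, 3.20 and 316 CPM in DMSO, 3.28, 3.76 and 315 CPM with HU and 3.50, 4.36 and 3.99 CPM with Thy-Noc, again at a high level near 300 CPM or a low one near 3 CPM. EIF2D, a non-canonical initiation factor, had 19461 counts in 1 Thy-Noc library and 26 to 103 counts in the other 8. It reached a CPM of at least 1 in too few libraries and was not tested. EIF4G3 (12.3 to 154 CPM), EIF5, which triggers hydrolysis of GTP on eIF2 (0.570 to 17.1 CPM), and EIF6, which keeps free large subunits apart (0.0477 to 20.2 CPM), complete the group.

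**Figure D4:**
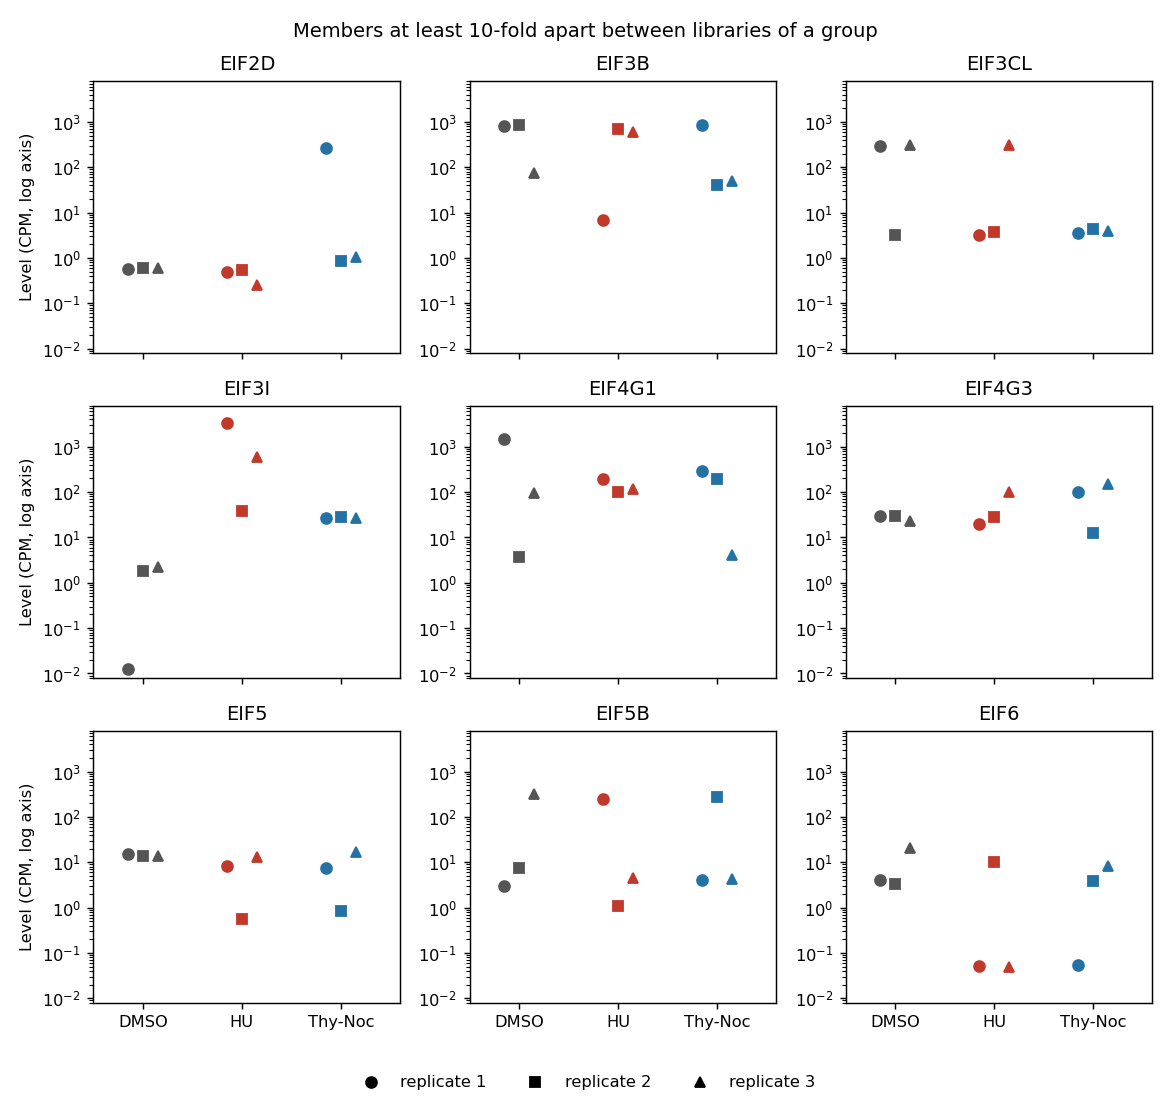
Level in CPM (vertical axes, log scale) in every library of the 9 factor genes whose libraries within a group differed at least 10-fold. EIF3B, EIF3CL and EIF5B sit at a high or a low level in single libraries of the same group, and EIF2D is high in 1 Thy-Noc library.

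This unevenness was set beside the number of annotated transcripts of each gene. Of the 8 tested factor genes with 1 to 3 transcripts in GENCODE 29, 1 was uneven, and the median over genes of the largest ratio between replicates was 1.28. With 4 to 10 transcripts 3 of 25 were uneven (median 2.48), and with over 10 it was 4 of 27 (median 2.56). Over all genes tested the uneven shares were 3.99%, 14.8% and 26.3% in these ranges. Across the tested factor genes Spearman's rho between the 2 measures was 0.38, given as a description, since genes of the same libraries are not independent. Within 2-fold in every group were 27 factor genes, and EIF4E and EIF5A were among them.

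**Figure D5:**
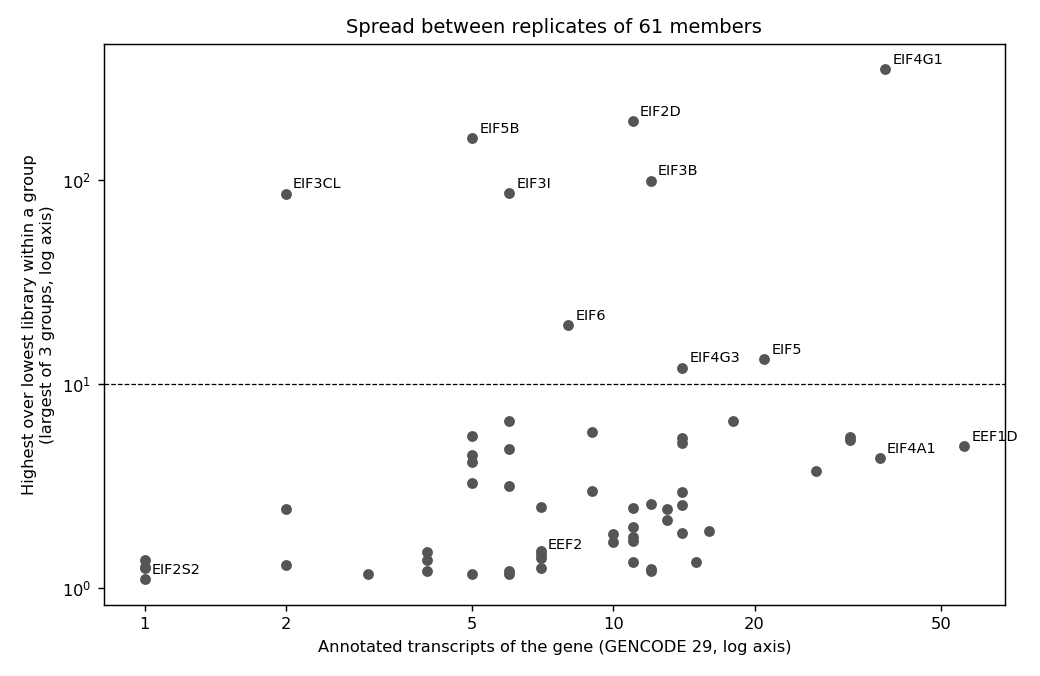
Highest over lowest library within a group, taken from the group where it was largest (vertical axis, log scale), against the number of annotated transcripts (horizontal axis, log scale) for the 61 factor genes, each a point. The dashed line marks 10-fold, with 9 genes above it, and EIF2S2, with 1 transcript, has the smallest ratio, 1.1.

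Genes that act on these factors were taken from 6 lists with 63 tested genes, of which 1 rose and 2 fell in HU against DMSO by edgeR's quasi-likelihood test (4.76%, where 3.56% of all genes were called, 2.0% as higher and 1.56% as lower). The same 1 and 2 genes were called in HU against Thy-Noc, where 0.696% of all genes were higher and 1.06% lower. In Thy-Noc against DMSO 0 of 63 were called (0.0353% over all genes). There 4 were at an unadjusted p under 0.05 (6.35%, with 4.49% over all genes). DESeq2 called 1 in that comparison, PABPC1 (1.58% over all genes). LARP1, which binds the caps of messengers for ribosomal proteins and elongation factors under the control of mTOR, was 1 of 14 genes of the TOR and MNK list, which had 2 at an unadjusted p under 0.05 in each comparison (21.2%, 4.49% and 19.4% over all genes in HU against DMSO, Thy-Noc against DMSO and HU against Thy-Noc). It was at 735, 722 and 672 CPM in DMSO, 414, 452 and 455 CPM with HU and 633, 604 and 644 CPM with Thy-Noc. The 3 groups did not overlap. LARP1 fell in HU by a log2 fold change of -0.69 ± 0.08 against DMSO (adjusted p = 0.0148) and -0.51 ± 0.08 against Thy-Noc (adjusted p = 0.0354), both in edgeR's quasi-likelihood test. Without DMSO replicate 1, 2 or 3 or HU replicate 1 the adjusted p against DMSO was 0.0553, 0.0545, 0.0514 and 0.0528. Against Thy-Noc the call was lost without any 1 library (adjusted p from 0.0507 to 0.121). LARP1 was called under 15 of 21 alternatives against DMSO and 8 of 21 against Thy-Noc. DESeq2 also called RPS6KB2, a kinase of ribosomal protein S6, in HU against each other group (18.8% and 16.1% over all genes against DMSO and Thy-Noc). It was at 1.17, 0.523 and 0.649 CPM in DMSO, 2.24, 9.67 and 5.41 CPM with HU and 0.464, 2.36 and 0.787 CPM with Thy-Noc (adjusted p = 0.0981 and 0.181 in edgeR's quasi-likelihood test).

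Of the 10 tested genes of the eIF2 kinases and phosphatase, PPP1CC fell and PPP1R15A rose in HU against each other group by edgeR's quasi-likelihood test, and limma called the same 2. At an unadjusted p under 0.05 the list held 4 genes in HU against DMSO, 0 in Thy-Noc against DMSO and 5 in HU against Thy-Noc. The shares over all genes tested were 21.2%, 4.49% and 19.4% in that order. DESeq2 called 6, 0 and 5 of the 10 in the same order, where it called 18.8%, 1.58% and 16.1% of all genes. It added EIF2AK1 and EIF2AK4 in the first, PPP1R15B in the last and EIF2AK2 and PPP1CA in both. Whether the list differs from all genes was not tested. The eIF2 kinase EIF2AK2, which is activated by double-stranded RNA, was at 72.6, 97.1 and 63.1 CPM in DMSO, 190, 98.7 and 220 CPM with HU and 79.7, 87.1 and 60.9 CPM with Thy-Noc (adjusted p = 0.105 against DMSO and 0.118 against Thy-Noc in edgeR's quasi-likelihood test). Its HU libraries were the highest 3, 1 of them by a small margin. PPP1CA was uneven, with libraries of 1 group 2555-fold apart. PPP1CC, a catalytic subunit of protein phosphatase 1, was at 968, 1025.5 and 942 CPM in DMSO, 654, 541 and 627 CPM with HU and 1052.3, 922 and 1017.9 CPM with Thy-Noc. HU was lower by -0.69 ± 0.10 on the log2 scale against DMSO (adjusted p = 0.0224) and by -0.72 ± 0.10 against Thy-Noc (adjusted p = 0.0300) in edgeR's quasi-likelihood test. Leaving out any DMSO library, HU replicate 1 or HU replicate 3 ended the first call, with an adjusted p of up to 0.0845. The call against Thy-Noc was lost without any 1 library other than HU replicate 2 (adjusted p from 0.0429 to 0.119 over all 9). PPP1CC was called under 14 of 21 alternatives against DMSO and 10 of 21 against Thy-Noc. PPP1R15A, the subunit that directs the phosphatase to eIF2 alpha, was at 6.15, 6.76 and 6.47 CPM in DMSO, 71.4, 60.9 and 43.4 CPM with HU and 10.3, 7.64 and 5.45 CPM with Thy-Noc. Its HU libraries stood far above the other 6 (log2 fold change against DMSO 3.18 ± 0.30, adjusted p = 0.00884, and against Thy-Noc 2.91 ± 0.29, adjusted p = 0.0131, in edgeR's quasi-likelihood test). Without DMSO replicate 3 the adjusted p against DMSO was 0.0514, and without HU replicate 1 or Thy-Noc replicate 3 that against Thy-Noc was 0.0549 or 0.0511.

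The other 4 lists had 0 called genes in each comparison by edgeR's quasi-likelihood test and by limma. DESeq2 called ETF1, GSPT1, MTIF2 and TUFM between HU and each other group, and PABPC1 between each treatment and DMSO. Over all genes DESeq2 called 18.8% in HU against DMSO, 1.58% in Thy-Noc against DMSO and 16.1% in HU against Thy-Noc. In termination, recycling and rescue, 2 of 8 genes were at an unadjusted p under 0.05 in HU against DMSO, 0 in Thy-Noc against DMSO and 4 in HU against Thy-Noc, beside the shares of 21.2%, 4.49% and 19.4% over all genes. ETF1, the release factor that reads stop codons, had the smallest p of the list over the 3 comparisons (0.00179 unadjusted, 0.0621 adjusted, in HU against Thy-Noc by edgeR's quasi-likelihood test), and in HU against DMSO its partner GSPT1 had a smaller p (0.00437, against 0.0056). ETF1 was at 323, 338 and 326 CPM in DMSO, 254, 213 and 219 CPM with HU and 379, 292 and 403 CPM with Thy-Noc, with HU lowest. Of the 9 mitochondrial translation factors, 2, 0 and 2 were at an unadjusted p under 0.05 in the same order of comparisons. The initiation factor MTIF2 led them, at 161, 182 and 163 CPM in DMSO, 132, 145 and 130 CPM with HU and 183, 173 and 166 CPM with Thy-Noc, again with HU lowest. Of the 12 messenger-bound and scanning helpers it was 0, 1 and 0. The poly(A)-binding protein PABPC1 was that gene and was uneven, at 10.4, 4.27 and 16.6 CPM in DMSO, 14.7, 7.53 and 3697.9 CPM with HU and 5906.2, 15.6 and 10845.4 CPM with Thy-Noc. Of the 10 genes for hypusine, diphthamide and selenocysteine use it was also 0, 1 and 0. DPH2, which acts in the making of the diphthamide residue of eEF2, was at 4.93, 22.5 and 5.68 CPM in DMSO, 5.42, 3.17 and 4.52 CPM with HU and 2.32, 3.84 and 3.31 CPM with Thy-Noc.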

How the data were processed

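Per the labels' protocols, libraries were made with a stranded mRNA kit. Per the submitters' processing notes, STAR, Trim Galore, FastQC and DESeq2 were used (no versions), on GRCh38. The sources used here do not give the counting tool or its strand setting. The table that the authors deposited is named for CPM, but its values are whole numbers of at least 1 with unequal library totals, so the deposited values were taken to be whole-number estimated counts, used unchanged. Symbols came from the table's gene identifiers (15393 of 15436 matched), coordinates and transcripts from GENCODE 29 and sequences from RefSeq.

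R 4.3.3 and edgeR 4.0.16 fitted the 3 groups to all 9 libraries (TMM scaling, a minimum of 1 CPM in 3 or more libraries, quasi-likelihood F test on 2 sides, Benjamini-Hochberg adjustment over 11346 genes, threshold 0.05). CPM use TMM-scaled sizes, and SEs come from the log2 fold change and the F statistic. The fit was also run on simulated counts as a check of the code, and no result here draws on that run. Described singly are called genes, the 6 highest by mean CPM, the smallest p of each class, uneven genes and, per pathway list, called genes or the smallest p. Genes named beyond that rule, such as EIF1AX, EIF1B and EIF5AL1, were chosen after their values were seen. The members and lists were chosen with earlier results of these data known. Alternatives were DESeq2 1.42.0, limma 3.58.1, other filters and scalings, a replicate block, fits of 6 libraries and leaving out each library, and, chosen after seeing the data, robust dispersions and no uneven genes.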

Additional observations from a re-analysis of the deposited data

How the results depend on the processing

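EIF4E stayed lower in HU than in DMSO (log2 fold change -0.78 to -0.58) and EIF5A lower in HU than in Thy-Noc (-1.77 to -1.40) under all 21 alternatives, but each was called under 8 of them. In HU against DMSO, the number of called factor genes was 0 without a filter, with total-count scaling, with the replicate block and in the fit of only 6 libraries, 3 at a CPM of at least 5, 4 with limma at each pseudocount (0.5, 0.1 and 1), 9 with DESeq2 and 4 without the uneven genes. In HU against Thy-Noc it was 0 under the first 4 of these, 2 at a CPM of at least 5, 2 with limma at a pseudocount of 1, 6 with DESeq2 and 3 without the uneven genes. In Thy-Noc against DMSO DESeq2 gave 1. Among the genes that act on the factors, the replicate block and the fit of only 6 libraries ended the calls of LARP1 (adjusted p = 0.0652 and 0.0569 against DMSO, 0.106 and 0.127 against Thy-Noc) and PPP1CC (0.073 and 0.065, 0.0996 and 0.116) and that of PPP1R15A against Thy-Noc (0.068 and 0.0712) in edgeR's quasi-likelihood test. LARP1 against Thy-Noc was also lost without a filter (0.0607) and with total-count scaling (0.0763), and PPP1CC against Thy-Noc without a filter (0.05, just above the threshold before rounding). Without 1 library at a time the number was 0 to 0 in each comparison.

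Over all genes, 404 were called in HU against DMSO, and 221 without a filter, 9 with the replicate block, 51 with only 6 libraries, 2135 with DESeq2, 721 without the uneven genes and 21 to 318 without 1 library. In HU against Thy-Noc it was 199, and 72, 0, 18, 1826, 472 and 1 to 103 in that order, 313 at a CPM of at least 5, and 326, 311 and 346 with limma at pseudocounts of 0.5, 0.1 and 1. In Thy-Noc against DMSO it was 4, and 0 with the replicate block, 179 with DESeq2, 12, 7 and 12 with limma and 5 to 13 without 1 library. With total-count scaling 373 genes were called in HU against DMSO, 157 in HU against Thy-Noc and 4 in Thy-Noc against DMSO. In HU against DMSO 508 were called at a CPM of at least 5. The cause of these changes was not tested. Replicate numbers were not used as pairs in the main fit. Deviations of same-numbered libraries correlated by -0.035 to 0.0405 over 9 pairs of libraries, and those of differently numbered ones by -0.0536 to 0.0331. These values take in the uneven genes, so they cannot show that the replicates were unpaired.

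Total-count scaling moved the median log2 fold change of all genes to 0.12 in HU against DMSO and 0.16 in HU against Thy-Noc, and the share of calls that were higher in HU from 56.2% to 72.7% and from 39.7% to 70.7%. It turned Thy-Noc against DMSO to -0.01 for EEF2 and -0.01 for EEF1G. Small differences also changed sign without 1 library: in HU against DMSO, EEF2 ran from -0.15 (without HU replicate 2) to 0.15, EEF1G from -0.08 (without HU replicate 2; -0.01 without DMSO replicate 1) to 0.18, and EIF2S1 from -0.02 (without HU replicate 3) to 0.07. EEF1G in Thy-Noc against DMSO was -0.03, -0.01 and -0.01 without DMSO replicate 1, DMSO replicate 3 or Thy-Noc replicate 1. The median count of the factor genes was 4033, and counting error was not compared with the spread between libraries.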
